A study of Homo sapiens with 12 samples.

Results

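Enzymes of serine synthesis and folate-bound one-carbon metabolism were followed through a B cell receptor experiment in U-2932 cells, an established line from a human diffuse large B cell lymphoma. The set held 9 of the 60675 genes in the table of counts, namely PHGDH, PSAT1, PSPH, SHMT1, SHMT2, MTHFD1, MTHFD2, MTHFD1L and ALDH1L2, taken by gene symbol on an autosome, and all 9 passed the filter on low counts. The cells in all groups stably expressed an introduced Roquin2, either the wild-type form (WT) or the Y691F form. Cells without treatment were compared with cells given 10 µg/ml of F(ab')2-IgM, an antibody fragment that engages the B cell receptor, for 12 h. This gave 4 groups of 3 libraries, and the submitters describe the replicates as independent biological ones. No group without an introduced Roquin2 was analysed here, and the sources used here do not say whether a form stood for 1 stable line or several. The difference between the Roquin2 forms and other differences between the stable cells cannot be told apart.

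Proliferating cells make serine from a glycolytic intermediate in the consecutive steps catalysed by PHGDH, PSAT1 and PSPH. The serine hydroxymethyltransferases, SHMT1 in the cytosol and SHMT2 in mitochondria, split serine into glycine and a one-carbon unit carried on folate. MTHFD2, MTHFD1L and ALDH1L2 act on these units in mitochondria and MTHFD1 acts on them in the cytosol, where they feed purine and thymidylate synthesis and the methionine cycle. Activated lymphocytes are known to draw on this pathway, and the transcription factors ATF4 and MYC are known activators of several of its genes.

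Library totals ran from 16465393 to 21478790 counts, and the 9 genes together took 0.0776% to 0.122% of them. The B cell markers MS4A1, CD79A, CD79B, PAX5 and CD22 stood above 64.4 CPM (counts scaled by library total and TMM factor) in every library. CD3D, CD2 and NKG7 had no read in any library, while CD3E, CD3G, LYZ, ITGAM, CSF1R and KRT8 reached at most 0.419 CPM. CD14, COL1A1 and COL1A2 reached at most 1.66 CPM, and the epithelial marker EPCAM stood at 18.5 to 24 CPM. The level of RC3H2, which encodes Roquin2, was 111 ± 1.08 CPM without IgM and 121 ± 1.80 CPM with it in WT, against 209 ± 0.880 and 206 ± 1.79 CPM in Y691F (mean ± SD, n = 3). It was thus higher in Y691F in both states (log2 0.92 and 0.77), so the substitution and the RC3H2 level cannot be told apart, and how reads from the introduced gene were counted was not stated.

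Compared per gene length, on the RPKM values that the authors deposited, SHMT2 was the most abundant of the 9 transcripts in every group and ALDH1L2 the least. In untreated WT the order of RPKM levels was SHMT2 (57.6 ± 0.780, SD, n = 3), PHGDH (39.2 ± 0.832), MTHFD2 (25.1 ± 0.595), MTHFD1 (23.4 ± 0.360), PSAT1 (16.2 ± 0.809), SHMT1 (8.01 ± 0.406), PSPH (6.33 ± 0.442), MTHFD1L (6.0 ± 0.441) and ALDH1L2 (0.248 ± 0.0140). In that order only PSPH and MTHFD1L overlapped between neighbours. With IgM in WT, PHGDH took the fourth place (16.1 ± 0.798 RPKM), below MTHFD2 (19.1 ± 1.14) and MTHFD1 (19 ± 0.121), whose libraries overlapped. MTHFD1L (7.45 ± 0.325 RPKM) then stood above PSAT1 (4.24 ± 0.638), which overlapped with SHMT1 (3.51 ± 0.0815). In untreated Y691F the neighbours MTHFD2 (19.4 ± 0.471 RPKM) and PSAT1 (19.4 ± 0.916) overlapped, as did PSPH (5.41 ± 0.218) and MTHFD1L (4.80 ± 0.506). In Y691F with IgM only PSAT1 (7.30 ± 0.699 RPKM) and MTHFD1L (6.36 ± 0.349) did.

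**Figure D1:**
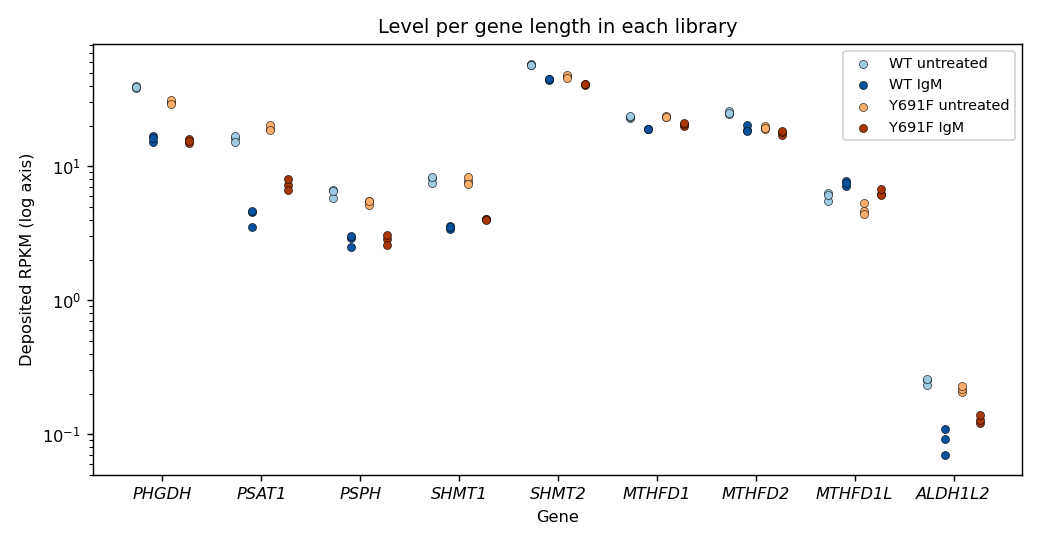
Deposited RPKM (log axis) of the 9 genes in each of the 12 libraries, coloured by group, 3 points per group. SHMT2 is highest and ALDH1L2 lowest in every group, and the genes of serine synthesis sit lower with IgM than untreated in both forms.

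The IgM response was tested separately in each Roquin2 form. In WT, 8 of the 9 genes fell and 1 rose. There 76.9% of the 15112 genes tested were called, 38.5% lower and 38.4% higher. In Y691F, 6 fell, 1 rose and 2 were not called, where 75.8% of tested genes were called, 38.7% lower and 37.1% higher. The 3 treated libraries did not overlap the 3 untreated ones for 9 of the 9 genes in WT and 7 in Y691F, against 77.7% and 75.6% of tested genes. With most of the genes responding, the share of the 9 called is near the background in Y691F. The median log2 change of the 9 genes was -1.04 in WT and -0.62 in Y691F, against 0.0016 and -0.011 over all tested genes. Calls rest on the quasi-likelihood test of edgeR with p adjusted over all tested genes and a threshold of 0.05. These bulk libraries give neither cell number nor the amount of RNA per cell, and the IgM changes are relative to the TMM scaling. When libraries were scaled by their totals alone, all tested genes had a median log2 change of -0.13 in WT and -0.18 in Y691F, and the share of calls that were higher was 36.9% in place of 48.9% in Y691F.

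All 3 enzymes of serine synthesis fell with IgM in both forms. PHGDH (ENSG00000092621, chromosome 1, 119659798 to 119744215, plus strand) encodes the dehydrogenase that opens the pathway. Its CPM values were 266, 251 and 258 in the untreated WT libraries and 111, 121 and 119 in those with IgM. In Y691F they were 198, 206 and 194 untreated and 109.9, 117 and 111 with IgM. Every IgM library lay below every untreated one, and the IgM libraries of both forms overlapped each other. The fall was 2.21-fold in WT (log2 -1.14, SE 0.034, adjusted p = 5.12e-48) and 1.77-fold in Y691F (log2 -0.82, SE 0.034, adjusted p = 3.15e-37).

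PSAT1 (ENSG00000135069, chromosome 9, 78297143 to 78330093, plus strand) encodes the aminotransferase of the second step and had the largest fall of the 9 genes in both forms. Its libraries stood at 42.2, 43.2 and 39.1 CPM in untreated WT, falling to 9.94, 12.9 and 13.1 CPM with IgM. In Y691F they stood at 48.6, 52.5 and 48.4 CPM untreated and 20.6, 18.8 and 22.4 CPM with IgM. No group overlapped another, and the order was untreated Y691F, untreated WT, Y691F with IgM and WT with IgM. The fall was 3.48-fold in WT (log2 -1.80, SE 0.071, adjusted p = 1.03e-36) and 2.43-fold in Y691F (log2 -1.28, SE 0.061, adjusted p = 1.98e-31). Of all tested genes, 6.77% had a lower log2 change than PSAT1 in WT and 10.2% in Y691F.

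PSPH (ENSG00000146733, chromosome 7, 56011051 to 56051604, minus strand) encodes the phosphatase that releases serine. Its untreated WT libraries had 19.1, 21.5 and 21 CPM and the treated ones 10.4, 10.6 and 8.86. In Y691F it stood at 17.7, 16.7 and 18.2 CPM untreated and 10.4, 10.9 and 9.19 CPM with IgM. The treated libraries lay below all untreated ones. The fall was 2.06-fold in WT (log2 -1.04, SE 0.082, adjusted p = 2.34e-20) and 1.72-fold in Y691F (log2 -0.78, SE 0.083, adjusted p = 3.79e-14). The ratio of PSPH to PHGDH in RPKM was 0.162 ± 0.0143 in untreated WT and 0.174 ± 0.0193 with IgM, a difference with an exact permutation p of 0.4 (2-sided, n = 3 per group). The ratio of PSAT1 to PHGDH was 0.413 ± 0.0269 untreated and 0.262 ± 0.0284 with IgM in WT, and 0.642 ± 0.0121 and 0.471 ± 0.0533 in Y691F, with no overlap in either form (exact permutation p = 0.1, the smallest that 3 against 3 allow).

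**Figure D2:**
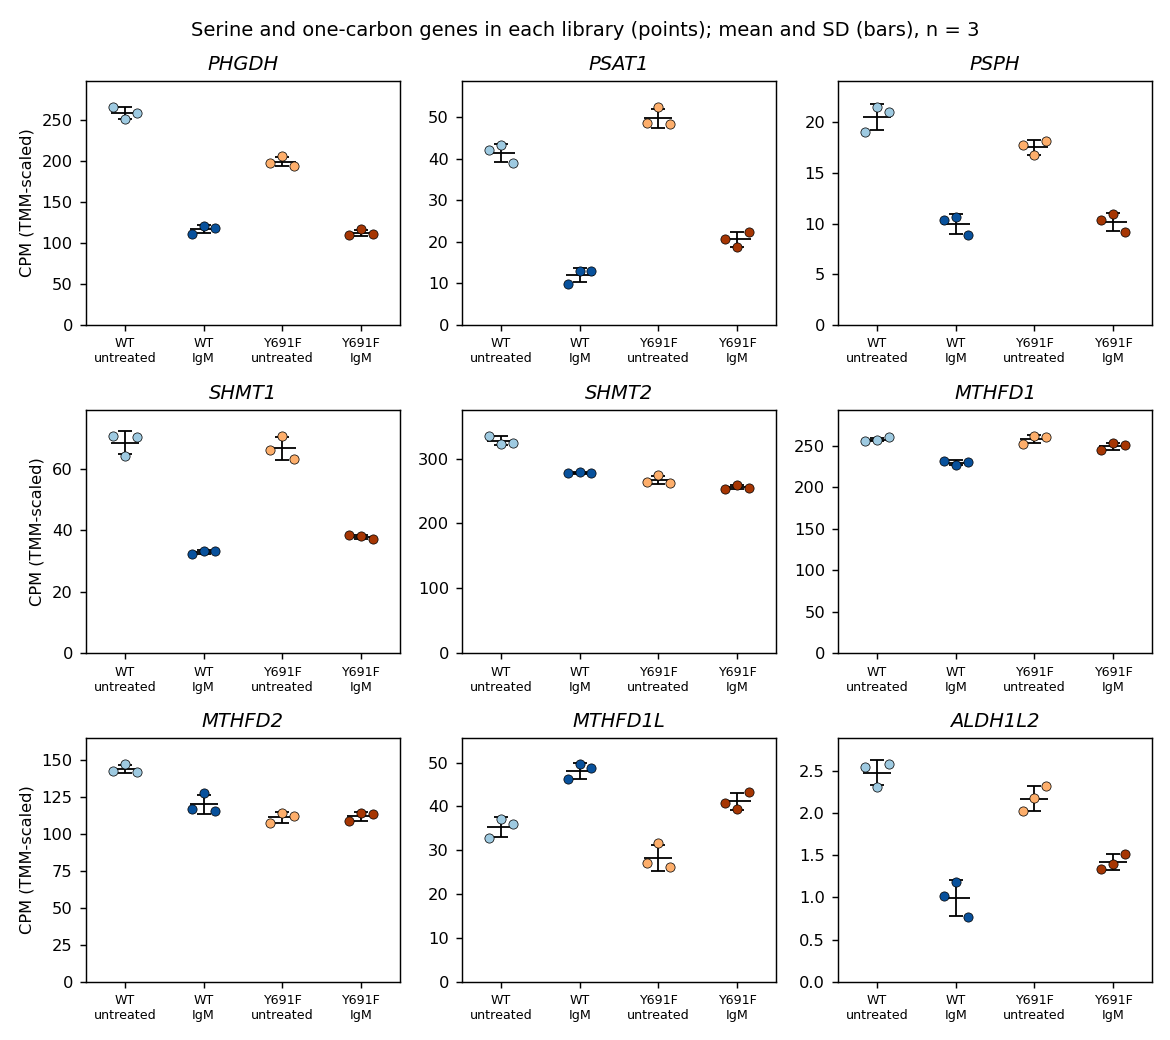
CPM of each gene in every library (points), with the mean and SD of each group of 3 as bars, on linear axes from 0. PHGDH, PSAT1, PSPH and SHMT1 are lower with IgM in both forms, MTHFD1L is higher, and SHMT2, MTHFD1 and MTHFD2 vary over a narrower relative range.

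Both hydroxymethyltransferases were called lower with IgM in both forms. The cytosolic SHMT1 (ENSG00000176974, chromosome 17, 18327860 to 18363563, minus strand) had 70.8, 64.3 and 70.5 CPM in the untreated WT libraries and 32.2, 33.2 and 33.3 in the treated ones. In Y691F it stood at 66.1, 70.8 and 63.3 CPM untreated and 38.4, 38.1 and 37.1 CPM with IgM. Treated and untreated libraries did not overlap. It fell 2.08-fold in WT (log2 -1.05, SE 0.050, adjusted p = 5.43e-34) and 1.76-fold in Y691F (log2 -0.82, SE 0.048, adjusted p = 1.25e-27).

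The mitochondrial SHMT2 (ENSG00000182199, chromosome 12, 57229327 to 57234935, plus strand) had 335, 322 and 324 CPM in the untreated WT libraries and 277, 280.1 and 278 in the treated ones, a 1.18-fold fall (log2 -0.23, SE 0.029, adjusted p = 1.93e-11). In Y691F its libraries stood at 264, 275 and 263 CPM untreated and 253, 259 and 255 CPM with IgM (log2 -0.063, SE 0.029, adjusted p = 0.047). Each treated library lay below each untreated one in both forms. The call in Y691F was near the threshold. It was lost with DESeq2 size factors (adjusted p = 0.0843), with DESeq2 (adjusted p = 0.0827) and without a filter on low counts (adjusted p = 0.192). It was also lost when any 1 of 10 of the 12 libraries was left out, all but replicates 1 and 3 of untreated Y691F, with a value of -0.040 without replicate 2 of untreated Y691F (adjusted p = 0.245). With library totals only the log2 change was -0.23, and with a filter of 5 CPM -0.12.

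Within each library the ratio of SHMT1 to SHMT2 does not depend on the scaling between libraries. In RPKM it was 0.139 ± 0.00603 in untreated WT and 0.0785 ± 0.00119 with IgM. In Y691F it was 0.166 ± 0.00564 untreated and 0.0984 ± 0.00213 with IgM. The ratio was lower with IgM in all 6 treated libraries, and higher in Y691F than in WT in either state, with no overlap in any of these 4 comparisons (exact permutation p = 0.1 in each, 2-sided, n = 3 per group, the smallest possible).

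The 3 MTHFD genes, which move one-carbon units between forms of folate, responded with both signs in WT, where MTHFD1L rose and the others fell. MTHFD1L (ENSG00000120254, chromosome 6, 150865549 to 151101887, plus strand), the mitochondrial synthetase that releases formate, was the only one of the 9 genes that rose. Its values were 32.8, 37.2 and 36.1 CPM in untreated WT and 46.2, 49.7 and 48.7 CPM with IgM (log2 0.44, SE 0.055, adjusted p = 1.97e-11). In Y691F they were 27.1, 31.6 and 26.1 CPM untreated and 40.8, 39.5 and 43.3 CPM with IgM (log2 0.54, SE 0.058, adjusted p = 8.94e-14). All treated libraries lay above all untreated ones. A pseudogene, RP1-292B18.1, lies inside MTHFD1L on the same strand with 463 to 700 counts per library, and it was also higher with IgM (log2 0.47 in WT and 0.25 in Y691F). Its part in the MTHFD1L counts was not tested.

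MTHFD2 (ENSG00000065911, chromosome 2, 74198562 to 74217565, plus strand), the mitochondrial dehydrogenase and cyclohydrolase, had WT values of 142, 147 and 142 CPM untreated and 117, 127 and 116 CPM with IgM, without overlap (log2 -0.26, SE 0.036, adjusted p = 5.09e-10). In Y691F the libraries stood at 107, 114 and 112 CPM untreated and 108, 114 and 113 CPM with IgM, and they overlapped (log2 0.013, SE 0.037, adjusted p = 0.759). With library totals only, MTHFD2 was called lower in Y691F as well (-0.16, adjusted p = 1.12e-04).

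MTHFD1 (ENSG00000100714, chromosome 14, 64388031 to 64463457, plus strand), the cytosolic enzyme with 3 activities on folate, had WT values of 256, 256 and 259.8 CPM untreated and 231, 226 and 231 CPM with IgM, without overlap (log2 -0.16, SE 0.030, adjusted p = 7.91e-07). In Y691F it stood at 252, 262 and 259.9 CPM untreated and 245, 253 and 250.3 CPM with IgM, where the groups overlapped (log2 -0.049, SE 0.029, adjusted p = 0.122). A fall was called there with library totals only (-0.22) and with a filter of 5 CPM (-0.10). In WT, library totals gave larger falls of -0.37 for SHMT2, -0.30 for MTHFD1 and -0.39 for MTHFD2, over 1.5 times those with TMM. The RPKM ratio of MTHFD2 to MTHFD1L, which no scaling touches, was 4.2 ± 0.245 untreated and 2.57 ± 0.105 with IgM in WT, and 4.07 ± 0.361 and 2.81 ± 0.153 in Y691F. It did not overlap between treated and untreated libraries in either form (exact permutation p = 0.1, the smallest possible). The ratio of MTHFD1 to MTHFD2 was higher in Y691F than in WT, at 1.21 ± 0.0140 against 0.929 ± 0.0233 untreated and 1.16 ± 0.0126 against 0.996 ± 0.0635 with IgM, without overlap (exact permutation p = 0.1 in each). In all, 20 such ratio comparisons were made, and none can pass a threshold of 0.05 with 3 libraries a group, before or after adjustment.

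ALDH1L2 (ENSG00000136010, chromosome 12, 105019784 to 105084577, minus strand), which oxidises formyl-folate in mitochondria, rested on few reads. Its counts were 48, 52 and 45 in untreated WT and 17, 22 and 12 with IgM, and 44, 42 and 46 and 24, 26 and 24 in Y691F. The treated libraries were below the untreated ones in both forms, and the fall was 2.46-fold in WT (log2 -1.30, SE 0.22, adjusted p = 2.43e-07) and 1.53-fold in Y691F (log2 -0.62, SE 0.21, adjusted p = 0.00602). C12orf45 overlaps ALDH1L2 on the opposite strand with 179 to 295 counts. ZBTB25 overlaps MTHFD1, and SMCR8 overlaps SHMT1 by 196 bases, both also on the opposite strand. The libraries kept strand, but the sources used here do not say whether the counting used it. With IgM, SMCR8 rose (log2 1.26 in WT and 1.18 in Y691F) while SHMT1 fell. ZBTB25, with 14352 bases of overlap, fell in both forms (log2 -0.15 in WT and -0.41 in Y691F). C12orf45, with 29954 bases of overlap, rose in WT (log2 0.27) and fell in Y691F (log2 -0.35). The part of these genes in the counts of ALDH1L2, MTHFD1 and SHMT1 was not tested. Pseudogenes of MTHFD1, MTHFD2, PSAT1, PSPH and SHMT1 held at most 2.77% of the reads of their parent gene in any library.

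**Figure D3:**
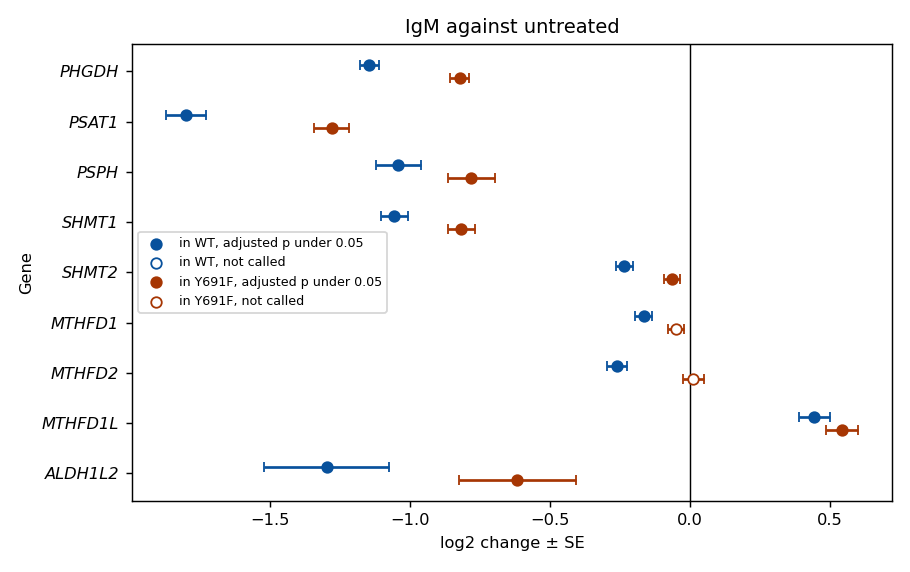
Log2 change with IgM (± SE) of each gene in WT and in Y691F; filled points were called at an adjusted p under 0.05 and open points were not. PSAT1 lies farthest left in both forms, at -1.80 and -1.28, and MTHFD1L is right of 0 in both.

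The 250 bases before the annotated starts are shown for PHGDH, PSAT1 and SHMT1, which fell with IgM, and for MTHFD1L, which rose. A link between these letters and the IgM responses was not tested. RefSeq windows (GRCh38.p14) were matched by symbol for 6 of the 9 genes. PSPH, SHMT2 and ALDH1L2 had no entry. The windows of MTHFD1 and MTHFD2 were searched but are not printed. Capitals mark matches on either strand to CCAAT (the motif of the factor NF-Y), to CACGTG (the E-box bound by MYC) and to TGATGNAA (the core of the composite element bound by ATF4 with C/EBP factors). Each window ends at a RefSeq start, which for PHGDH, SHMT1 and MTHFD1L lies inside the Ensembl gene given above. The printed windows of PHGDH and MTHFD1L lie wholly inside those genes. MTHFD1L has 4 listed starts, and 2 overlapping windows of these hold all 3 motifs, of which 1 is shown.
PHGDH, chr1:119711684-119711933, plus strand: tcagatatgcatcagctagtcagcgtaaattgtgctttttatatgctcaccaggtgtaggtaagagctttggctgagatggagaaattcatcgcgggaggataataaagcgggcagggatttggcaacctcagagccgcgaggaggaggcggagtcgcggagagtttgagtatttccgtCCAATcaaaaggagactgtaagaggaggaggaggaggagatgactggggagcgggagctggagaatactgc
PSAT1, chr9:78296875-78297124, plus strand: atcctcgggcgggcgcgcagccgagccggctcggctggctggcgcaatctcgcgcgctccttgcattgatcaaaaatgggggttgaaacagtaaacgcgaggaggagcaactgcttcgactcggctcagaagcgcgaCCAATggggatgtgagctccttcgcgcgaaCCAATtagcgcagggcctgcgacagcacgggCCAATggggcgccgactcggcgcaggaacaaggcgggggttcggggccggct
SHMT1, chr17:18363551-18363800, minus strand: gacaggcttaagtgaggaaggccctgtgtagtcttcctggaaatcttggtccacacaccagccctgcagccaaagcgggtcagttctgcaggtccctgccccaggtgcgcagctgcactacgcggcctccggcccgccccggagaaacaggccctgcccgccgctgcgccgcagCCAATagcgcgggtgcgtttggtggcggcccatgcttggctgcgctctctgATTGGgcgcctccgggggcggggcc
MTHFD1L, chr6:150866197-150866446, plus strand: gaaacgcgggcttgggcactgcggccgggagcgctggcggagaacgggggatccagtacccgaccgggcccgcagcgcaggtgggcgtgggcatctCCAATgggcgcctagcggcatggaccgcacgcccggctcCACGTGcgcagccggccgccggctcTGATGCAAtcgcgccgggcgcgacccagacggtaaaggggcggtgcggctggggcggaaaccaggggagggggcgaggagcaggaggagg

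CCAAT occurred in windows of all 6 matched genes, for MTHFD1L in 3 of its 4. There was 1 match in PHGDH, 3 in PSAT1, 2 in SHMT1, 1 in MTHFD1 and 2 in MTHFD2. Of all 35116 windows, 32% held CCAAT. TGATGNAA was present in 2 of the 4 MTHFD1L windows, at the same genomic site, and in no window of the other 5 matched genes, against 3.14% of all windows. CACGTG was present in MTHFD1 and in those 2 MTHFD1L windows, against 6.34% of all windows. The 3 motifs did not overlap each other in these sequences. A match describes letters only, and no binding was measured.

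The comparison of the untreated lines asked how the Roquin2 forms differed before stimulation. PHGDH, PSPH, SHMT2, MTHFD2 and MTHFD1L were lower in Y691F and PSAT1 was higher. These are 6 of 9 genes, where 31.2% of tested genes were called, 16.1% lower and 15.1% higher. The libraries of the forms did not overlap for these 6 genes, against 40% of tested genes. PHGDH had 258 ± 7.16 CPM in WT and 199 ± 5.80 in Y691F (log2 -0.38, SE 0.032, adjusted p = 1.14e-17). MTHFD2 had 144 ± 2.80 CPM in WT and 111 ± 3.51 in Y691F (log2 -0.38, SE 0.035, adjusted p = 2.51e-15). SHMT2 had 327 ± 7.05 and 267 ± 6.53 CPM (log2 -0.29, SE 0.029, adjusted p = 1.60e-14). These are the gene that opens serine synthesis and the first mitochondrial enzymes of one-carbon release.

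MTHFD1L, the last enzyme before formate, went from 35.4 ± 2.33 CPM in WT to 28.3 ± 2.92 (log2 -0.33, SE 0.058, adjusted p = 3.28e-06). For PSPH the WT level was 20.5 ± 1.28 CPM and the Y691F level 17.5 ± 0.742 (log2 -0.23, SE 0.071, adjusted p = 0.00792), a call that was lost without replicate 2 of untreated WT (-0.19, adjusted p = 0.0762). PSAT1 went the other way, with 41.5 ± 2.17 CPM in WT and 49.8 ± 2.28 in Y691F (log2 0.26, SE 0.053, adjusted p = 5.28e-05). Consecutive steps of serine synthesis therefore had opposite signs in this comparison. The ratio of PSAT1 to PHGDH in RPKM was 0.642 ± 0.0121 in Y691F and 0.413 ± 0.0269 in WT, without overlap (exact permutation p = 0.1, the smallest possible). No difference was called for SHMT1 (log2 -0.036, SE 0.043, adjusted p = 0.578), MTHFD1 (log2 0.0043, SE 0.029, adjusted p = 0.935) or ALDH1L2 (log2 -0.19, SE 0.18, adjusted p = 0.467).

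The same comparison with IgM asked how the forms differed under stimulation, and it shares libraries with the IgM comparisons above. PSAT1, SHMT1 and MTHFD1 were higher in Y691F and SHMT2, MTHFD2 and MTHFD1L lower, that is 6 of 9 genes, where 42.1% of tested genes were called, 21.9% higher and 20.2% lower. For 7 of the 9 genes the libraries of the forms did not overlap, against 50.2% of tested genes. PSAT1 had the largest difference, from 12 ± 1.75 CPM in WT to 20.6 ± 1.83 in Y691F, or 1.71-fold (log2 0.78, SE 0.082, adjusted p = 4.63e-13). SHMT1 had 32.9 ± 0.600 CPM in WT and 37.9 ± 0.696 in Y691F (log2 0.20, SE 0.055, adjusted p = 0.00158). MTHFD1 had 229 ± 2.91 and 249 ± 4.19 CPM (log2 0.12, SE 0.030, adjusted p = 6.32e-04). The genes with higher values thus include both cytosolic folate enzymes of the set, SHMT1 and MTHFD1.

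The 3 genes that were lower encode mitochondrial enzymes. MTHFD1L had 48.2 ± 1.82 CPM in WT and 41.2 ± 1.93 in Y691F (log2 -0.23, SE 0.054, adjusted p = 3.12e-04). SHMT2 had 278 ± 1.48 and 256 ± 3.14 CPM (log2 -0.12, SE 0.030, adjusted p = 3.98e-04). For MTHFD2 the values were 119.9 ± 6.38 and 112 ± 3.02 CPM (log2 -0.10, SE 0.037, adjusted p = 0.0209). MTHFD2 was no longer called when replicate 2 of WT with IgM was left out (-0.044, adjusted p = 0.453) or replicate 1 of Y691F with IgM (-0.069, adjusted p = 0.21), nor without a filter on low counts (adjusted p = 0.0738) or with DESeq2 (adjusted p = 0.0896). PHGDH, which was lower in untreated Y691F, was not called with IgM (log2 -0.053, SE 0.037, adjusted p = 0.259), nor was PSPH (log2 0.032, SE 0.096, adjusted p = 0.82). ALDH1L2 had higher values in all 3 Y691F libraries than in the WT ones but was not called (log2 0.49, SE 0.26, adjusted p = 0.121).

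**Figure D4:**
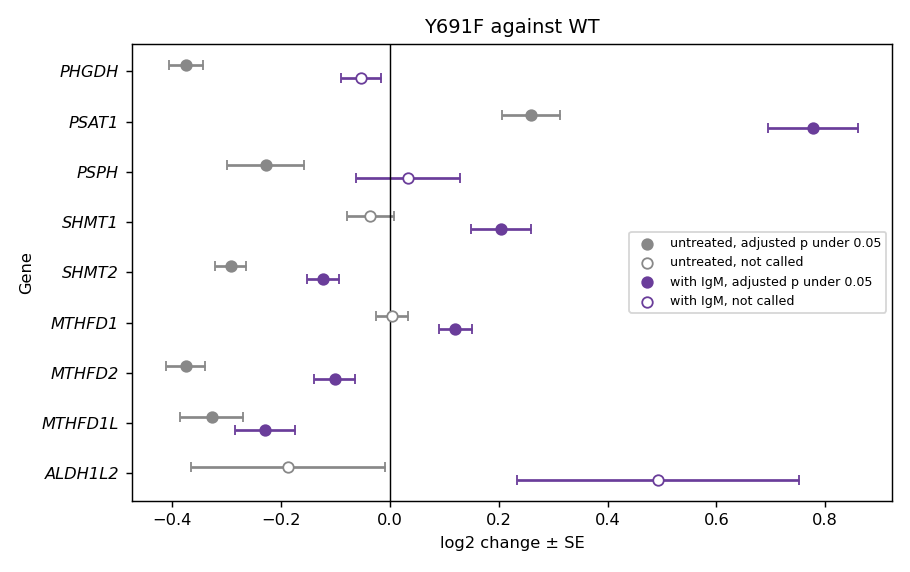
Log2 difference of Y691F against WT (± SE) for each gene, untreated (grey) and with IgM (purple); filled points were called at an adjusted p under 0.05. PSAT1 is right of 0 in both states, at 0.26 and 0.78, SHMT2, MTHFD2 and MTHFD1L are left of 0 in both, and PHGDH is left of 0, at -0.38 untreated and -0.053 with IgM.

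The difference between both IgM responses was tested as an interaction, which draws on the same 12 libraries as the comparisons above. For 6 of the 9 genes the log2 response was more positive in Y691F, where 25.7% of tested genes were called, 14.7% more positive and 11% more negative. The estimates for the other 3 genes were also above 0 but were not called. With library totals only, 46.4% of all calls in the interaction were higher, in place of 57.1%. PSAT1 had a response of -1.80 in WT and -1.28 in Y691F (difference 0.52, SE 0.098, adjusted p = 1.75e-05). For PHGDH the responses were -1.14 and -0.82 (difference 0.32, SE 0.049, adjusted p = 7.86e-08).

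MTHFD2, which fell in WT and was not called in Y691F, differed by 0.27 (SE 0.051, adjusted p = 1.29e-05). SHMT1 differed by 0.24 (adjusted p = 0.00598) and SHMT2 by 0.17 (adjusted p = 8.06e-04). MTHFD1 differed by 0.12 (adjusted p = 0.0317), a call lost with library totals only (0.080, adjusted p = 0.146), without a filter on low counts, and without replicate 2 or 3 of untreated WT, replicate 2 of WT with IgM, replicate 1 of untreated Y691F or replicate 2 of Y691F with IgM (0.097 to 0.12, adjusted p = 0.0511 to 0.104). PSPH (0.26, SE 0.12, adjusted p = 0.0996), ALDH1L2 (0.68, SE 0.31, adjusted p = 0.105) and MTHFD1L (0.098, SE 0.080, adjusted p = 0.41) were not called. PSPH was called without replicate 3 of Y691F with IgM (0.33, adjusted p = 0.0459).

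The wider pathway was read from 49 further genes in 6 role groups, of which 41 passed the filter on low counts. With IgM in WT, 17 of the 41 rose and 18 fell (median -0.025), and in Y691F 19 rose and 20 fell (median -0.093), next to the shares of all genes given above. Scaled by library totals alone, these counts were 15 and 21 in WT and 15 and 23 in Y691F. Purine synthesis, which consumes one-carbon units, had 7 of 8 genes higher in WT and 7 higher and 1 lower in Y691F, with medians of 0.47 and 0.43. ATIC, which catalyses the last steps to IMP, rose by 0.55 in WT and 0.55 in Y691F (adjusted p = 3.76e-29 and 9.57e-30). GART, which uses the first formyl group of the pathway, rose by 0.45 and 0.38, and PFAS by 0.62 and 0.42. The count of 7 higher was the same under each scaling tried, while with library totals only the medians were 0.33 and 0.26. PRPS2, which makes the ribose precursor, was called lower in Y691F (-0.18) and not in WT (-0.082), where library totals (-0.22, adjusted p = 6.36e-06) and a filter of 5 CPM (-0.13, adjusted p = 0.00549) called it too, and these responses were not shown to differ (interaction adjusted p = 0.245).

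Other folate enzymes went mostly down, with 1 higher and 6 lower of 8 in WT and 1 higher and 7 lower in Y691F. TYMS, the thymidylate synthase gene, stood at 219 ± 3.06 CPM untreated and 107 ± 2.03 CPM with IgM in WT (log2 -1.03, adjusted p = 3.53e-44), and it fell in Y691F as well (log2 -1.09, adjusted p = 1.01e-45).

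Among folate transporters, 1 of 4 rose and 3 fell in each form. The mitochondrial folate carrier gene SLC25A32 rose (0.88 in WT and 0.76 in Y691F) while SLC46A1, the proton-coupled folate transporter gene, fell (-1.15 and -0.58). Of the genes of serine supply and use, 5 of 9 rose and 4 fell in WT and 6 rose and 3 fell in Y691F. This became, by library totals alone, 4 rises and 4 falls in WT and 4 rises and 3 falls in Y691F. SLC1A4, a transporter of serine and other small neutral amino acids, went from 426 ± 3.06 to 176 ± 0.672 CPM with IgM in WT and from 424 ± 7.06 to 293 ± 3.16 CPM in Y691F. Its responses of -1.28 and -0.53 differed by 0.74 (SE 0.041, adjusted p = 6.77e-28). The neutral amino acid transporters SLC1A5 and SLC38A2 rose instead. SLC1A5 had 733 ± 20.2 CPM untreated and 1067 ± 23 CPM with IgM in WT (log2 0.54, adjusted p = 2.59e-31) and a log2 change of 0.87 in Y691F (adjusted p = 1.92e-45). SLC38A2 rose by 0.63 and 0.93. SFXN1, a mitochondrial serine transporter gene, rose by 0.54 in WT and 0.49 in Y691F. SFXN3, listed in the same role group, fell (-2.32 in WT and -1.98 in Y691F). Its levels were low, at 3.25 ± 0.590 CPM untreated and 0.642 ± 0.124 CPM with IgM in WT.

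In the methionine cycle and transsulfuration, 3 of 9 rose and 4 fell in WT and 4 rose and 4 fell in Y691F (2 and 5, and 2 and 6, with library totals only). CBS, which joins serine to homocysteine, fell by 1.76 on the log2 scale in WT and by 1.35 in Y691F (adjusted p = 3.48e-60 and 1.06e-51), and these responses differed (0.41, adjusted p = 2.39e-10). Of the glycine cleavage genes, AMT fell in both forms (-1.64 and -1.80), on at most 52 counts per library. GLDC was too low to test, at no more than 0.444 CPM in any library. DLD was called in Y691F (-0.15, adjusted p = 0.0025) but not in WT (-0.025, adjusted p = 0.638). The DLD responses were not shown to differ (interaction adjusted p = 0.16). GCSH was called in neither (0.030 and -0.093). With library totals only, DLD was also called lower in WT (-0.16, adjusted p = 0.00229) and GCSH lower in Y691F (-0.26, adjusted p = 2.55e-04), and a filter of 5 CPM called GCSH there too (-0.15, adjusted p = 0.0352). Between the forms, 3 of the 41 genes were higher and 9 lower in untreated Y691F, against 15.1% and 16.1% of all genes. With IgM 7 were higher and 9 lower, against 21.9% and 20.2% of all genes. Without regard to direction, both counts are near the 31.2% and 42.1% of all genes called. CTH, the next enzyme after CBS, was lower in Y691F untreated (log2 -0.52, adjusted p = 2.23e-05) and with IgM (log2 -0.94, adjusted p = 9.43e-09). In the interaction 9 of the 41 were more positive in Y691F and 1, PFAS (-0.21), more negative, against 14.7% and 11% of all genes. Without regard to direction this is near the 25.7% of all genes called. With library totals only the counts of 9 and 1 became 8 and 3, and with a filter of 5 CPM 9 and 2. CTH was not called in the interaction (-0.42, adjusted p = 0.0569) but was with library totals only (adjusted p = 0.0397), the 5 CPM filter (adjusted p = 0.047) and the replicate block (adjusted p = 0.0449).

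**Figure D5:**
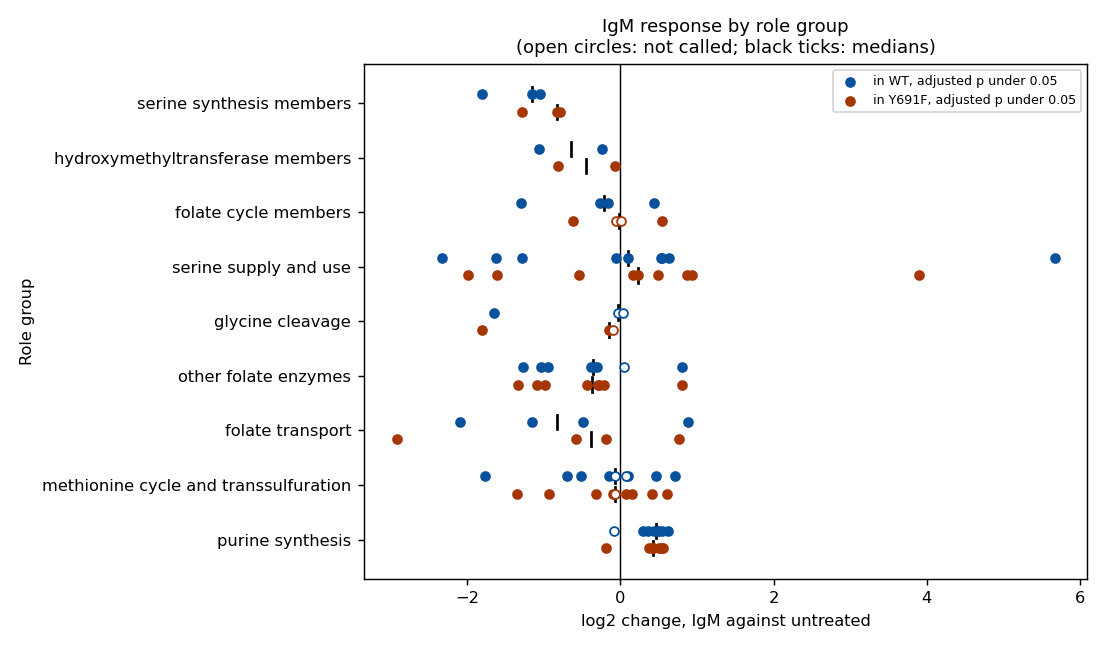
Log2 change with IgM of each tested gene of the pathway by role group, in WT and in Y691F; open circles were not called and black ticks are group medians. All but 1 of the purine synthesis genes lie right of 0, while the serine synthesis genes lie left of 0; the points farthest right are SDSL, with hardly any reads in untreated cells, whose fitted value is no measured fold.

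The mRNAs of 3 regulators known to act on these genes were read beside them. ATF4 rose from 387 ± 7.72 to 762 ± 5.84 CPM in WT and from 356 ± 12.7 to 815 ± 20.7 CPM in Y691F (log2 0.98 and 1.20, adjusted p = 1.01e-48 and 4.47e-55). NFE2L2, a regulator of the oxidative stress response, rose by 0.70 and 0.91. MYC rose in WT (12.1 ± 0.521 to 19 ± 1.01 CPM, log2 0.66, adjusted p = 3.56e-12) and fell in Y691F (19 ± 1.31 to 15.2 ± 1.11 CPM, log2 -0.31, adjusted p = 1.05e-04), with an interaction of -0.97 (adjusted p = 3.99e-12). ATF4 is controlled largely at translation, and no protein was measured.

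As a description of pattern, the protein-coding gene whose log2 CPM followed each of the 9 genes most closely over the 12 libraries was DNMT1 for PHGDH (Pearson r 0.997), TRAK1 for PSAT1 (0.994), SFI1 for PSPH (0.991) and ZNF580 for SHMT1 (0.998). For SHMT2 it was PFN1 (0.976), for MTHFD1 FBXO5 (0.984), for MTHFD1L NOP14 (0.982) and for ALDH1L2 ATP10D (0.983). MTHFD2 had the lowest such value, with AMPD2 (0.944). Among the 9 genes themselves r ran from -0.89 for PSAT1 with MTHFD1L to 0.970 for PHGDH with PSPH. These libraries fall into 4 groups and share their scaling, so the values reflect mainly the group means.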

How the data were processed

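Strand-marking RNA-seq of U-2932 cells gave 12 libraries. The authors deposited a whole-number read count and an RPKM value per Ensembl gene and library, per the file headers; RPKM served here to compare levels between genes and for ratios. STAR 2.5.0b, DESeq2 and GRCh38 are named in the submitters' processing notes; the sources used here do not give the counter, its settings, the annotation release or the lengths behind RPKM. Coordinates are those of the file (GRCh38, 1-based).

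Counts of 16465393 to 21478790 per library were scaled with TMM factors, and 15112 of 60675 genes passed filterByExpr. The quasi-likelihood test of edgeR 4.0.16 (robust, R 4.3.3) was fitted to all genes and all 12 libraries with 1 coefficient per group. P was adjusted over all tested genes (Benjamini-Hochberg, threshold 0.05). SE is the log2 change over the square root of F. On counts simulated for Y691F against WT with IgM (15112 genes) the test recovered 86% of 50 genes changed 1.25-fold and 100% of 50 changed 2-fold. The changed genes were drawn from those with a mean above 5 CPM, which leaves out the level of ALDH1L2. Every gene was simulated with the same biological spread, and the genes not drawn had no change, unlike the real comparison. Replicate pairs had a chi-square of 1.42 to 2.44 per degree of freedom. The 2-sided exact permutation tests on ratios have 0.1 as their smallest p. DESeq2 1.42.0, limma-voom (limma 3.58.1), other scalings, filters, a replicate block and each library left out were the alternatives. The 9 genes and all lists were chosen with earlier results of these data known. Named were the 9 genes, RC3H2, up to 3 called genes per role group and comparison by adjusted p, and the genes most alike in pattern, of which the first of 2 is given. Some genes that met this rule are left out of the text, and some outside it, such as SFXN3 and GLDC, are named.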

Additional observations from a re-analysis of the deposited data

Results flagged for a closer look

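The IgM response differed between the Roquin2 forms, by the interaction test, for 6 of the 9 genes, against 25.7% of all tested genes. The difference of log2 responses, Y691F minus WT, was 0.52 for PSAT1, 0.32 for PHGDH, 0.27 for MTHFD2, 0.24 for SHMT1, 0.17 for SHMT2 and 0.12 for MTHFD1. The last was lost under some alternatives, as given with it above. Of these genes, PHGDH, MTHFD2 and SHMT2 were lower in untreated Y691F than in untreated WT and were not higher with IgM. PSAT1 was higher in Y691F in both states, and SHMT1 and MTHFD1 were called higher only with IgM.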

How the results depend on the processing

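Of 310 values for single genes under other scalings, filters and tests, 299 kept their call, as did 521 of 540 with 1 library left out. Among values not called in either setting, 1 of the former (MTHFD2 with IgM in Y691F, -0.041 with a filter of 5 CPM) and 6 of the latter turned sign. The counts of the 9 genes called, and of all genes called, stayed within 1.5 times the main count in all of these. Library totals only gave MTHFD2 the opposite sign with IgM in Y691F (-0.16 in place of 0.013), and the TMM factors themselves were 1.04 to 1.07 untreated and 0.939 to 0.956 with IgM. A filter of 5 CPM in 3 libraries left ALDH1L2 untested. The replicate numbers were shared by the groups, but same-numbered libraries did not deviate together (r -0.062 to 0.030 over 18 pairs, with 3 of 12 libraries closest to their own number). With the replicate number as a block, SHMT2 with IgM in Y691F (-0.063, adjusted p = 0.0514) was the only call among the 9 genes that changed, and 5 in place of 6 of them were called lower there. Depth limits ALDH1L2, with 12 to 52 counts per library.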
